A study of Mus musculus with 12 samples.

Results

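The genes described here are 9 transcription factors on the output side of the mammalian circadian clock. They are the PAR bZIP activators Dbp, Tef and Hlf, the opposing bZIP repressor Nfil3, the Rev-erb receptors Nr1d1 and Nr1d2, the related receptor Rora, and the bHLH repressors Bhlhe40 and Bhlhe41. They were taken by gene symbol from the deposited count table, in which 9 of 24197 genes matched and all 9 passed the filter on low counts. RNA was measured in whole brown adipose tissue (BAT), the fat that burns fuel for heat, from mice 8 to 10 weeks old, in 12 libraries that form 4 groups of 3. The mutant groups were labelled Adipoq-Cre+; Ebf2 fl/fl and the control groups Adipoq-Cre-; Ebf2 fl/fl, so both carried floxed alleles of Ebf2, a transcription factor of brown fat. Adipoq-Cre is driven by the adiponectin promoter in adipocytes, and other cells of the tissue keep the gene. Each genotype was sampled at room temperature (RT) and after 1 week in the cold at 4 degrees. Whether each replicate came from its own animal is not stated, so the tests reflect only how far these samples lie apart, and that spread may be technical.

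Clock output works through a few DNA elements. The core loop drives Dbp, Tef, Nr1d1, Nr1d2, Bhlhe40 and Bhlhe41 through E-boxes, the PAR bZIP factors activate and Nfil3 represses genes with D-boxes, and the Rev-erb receptors repress while Rora activates genes with Ror elements, among them Arntl and Nfil3. In mouse brown fat Rev-erb alpha, the product of Nr1d1, has been described as a repressor of the thermogenic gene Ucp1. Many of these transcripts cycle over the day, so the hour of tissue collection sets their level. That hour is not given in the sources used here, and a difference in collection time between groups cannot be told apart from genotype or temperature.

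The targeted gene did not separate the genotypes at RT, where Ebf2 was at 65.2, 45.7 and 38.3 CPM (counts scaled to a common library total) in the libraries labelled mutant and at 47.4, 64.1 and 32.0 CPM in control libraries. The Ebf2 counts at RT therefore do not bear out the mutant label. They were taken per gene in whole tissue, where other cells keep Ebf2, so they cannot show what adipocytes lost. Mutants and mutant libraries below means the libraries labelled mutant, and each direction between genotypes rests on that label. In the cold Ebf2 was at 21.6 to 28.7 CPM in mutants and at 41.6 to 52.3 CPM in controls. The log2 difference of -0.82 ± 0.25 was not called (adjusted p = 0.153). The brown adipocyte markers were present in all groups, with none of 7 at 0 and a summed level of 3547 to 5154 CPM in mutants at RT, 6179 to 11511 CPM in controls at RT, 10342 to 18088 CPM in mutants in the cold and 16854 to 18751 CPM in controls in the cold. Of these 7 markers 2 were called lower and 1 higher in mutants at RT, beside 2.32% and 3.92% of all tested genes. Ucp1 averaged 1308 CPM in mutants and 4453.5 CPM in controls at RT, and Elovl3 62.8 and 20.5 CPM. The sum therefore does not stand for each gene. Summed adipocyte markers were 19387 to 25188 CPM in mutants at RT and 12783 to 17417 CPM in controls at RT. Of those 6 markers 3 were called higher in mutants at RT. Library totals ran from 25835650 to 37927038 counts. Skeletal muscle RNA was uneven, with 18 marker genes summing to between 19.1 and 24421 CPM per library, and it was highest in mutant RT 3, control RT 1 and 3, and control cold 3, at 9084 CPM or more. Mutant cold 3 came next at 5305 CPM, above 2306 CPM or less in the rest, and it stays in the fits without the 4 muscle-rich libraries below. An epithelial marker list reached 239 CPM in mutant cold 3 and 2.62 to 24.1 CPM in the other libraries. Summed lens markers were 54.6 to 103 CPM in mutants at RT, 247 to 570 CPM in controls at RT, 108 to 148 CPM in mutants in the cold and 141 to 225 CPM in controls in the cold. The sum in mutants at RT was mostly Cryab, which tissues other than lens also express (mean 74.5 CPM), while Cryaa averaged 0.333 CPM in mutants at RT and 132 CPM in controls at RT, and Mip was at 0 in all mutant RT libraries and averaged 9.03 CPM in controls at RT. Of the 7 lens markers, 6 were lower in mutants at RT, none was called between genotypes in the cold or between temperatures in controls, and 5 were higher in the cold in mutants and in the interaction. The part of these other cell types in the results was not tested beyond the values given. In bulk tissue fewer cells of a type and less RNA per cell cannot be told apart.

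Promoter windows of the 6 members that passed the test in at least 1 comparison are shown. These windows were searched for the elements named above. Each is the 250 bases before a RefSeq transcription start (build GRCm38.p6), read 5′ to 3′ on the gene's strand, and capitals mark matches to the searched motifs on either strand. The motifs were the E-box CACGTG, the related E-prime box CACGTT, the Ror element core AGGTCA, and the D-box written as TTACGCAA, TTACGTAA, TTATGCAA or TTATGTAA. Nfil3 lies at chr13:52981040-52981289 (minus strand), Rora at chr9:68653536-68653785 (plus), Dbp at chr7:45704997-45705246 (plus), Hlf at chr11:90390918-90391167 (minus) and Nr1d2 at chr14:18239107-18239356 (minus). The windows of Tef lie at chr15:81802423-81802672 and chr15:81811164-81811413 (both plus).
Nfil3: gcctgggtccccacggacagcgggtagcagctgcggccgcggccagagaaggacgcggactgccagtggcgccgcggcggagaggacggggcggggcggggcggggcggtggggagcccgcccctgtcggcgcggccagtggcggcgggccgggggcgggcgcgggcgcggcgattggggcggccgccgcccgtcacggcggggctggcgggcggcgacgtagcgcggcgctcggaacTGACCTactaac
Rora: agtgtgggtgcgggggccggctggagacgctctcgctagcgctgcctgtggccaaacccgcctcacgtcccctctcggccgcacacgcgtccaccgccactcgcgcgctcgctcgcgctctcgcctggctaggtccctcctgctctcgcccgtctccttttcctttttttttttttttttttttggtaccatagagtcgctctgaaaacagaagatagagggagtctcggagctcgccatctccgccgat
Dbp: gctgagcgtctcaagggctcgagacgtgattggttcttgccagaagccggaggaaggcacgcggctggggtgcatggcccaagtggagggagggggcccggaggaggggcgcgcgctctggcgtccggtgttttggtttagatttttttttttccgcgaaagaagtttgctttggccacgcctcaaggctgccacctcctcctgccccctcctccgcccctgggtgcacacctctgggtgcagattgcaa
Tef, first window: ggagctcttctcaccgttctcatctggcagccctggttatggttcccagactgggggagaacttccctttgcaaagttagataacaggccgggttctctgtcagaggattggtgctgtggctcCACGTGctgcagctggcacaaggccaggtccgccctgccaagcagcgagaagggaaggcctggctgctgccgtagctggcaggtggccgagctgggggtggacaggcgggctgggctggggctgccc
Tef, second window: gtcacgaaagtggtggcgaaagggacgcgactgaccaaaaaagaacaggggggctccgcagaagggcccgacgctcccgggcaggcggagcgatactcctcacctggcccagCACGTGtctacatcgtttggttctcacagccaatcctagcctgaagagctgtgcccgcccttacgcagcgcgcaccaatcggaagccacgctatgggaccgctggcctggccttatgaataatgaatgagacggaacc
Hlf: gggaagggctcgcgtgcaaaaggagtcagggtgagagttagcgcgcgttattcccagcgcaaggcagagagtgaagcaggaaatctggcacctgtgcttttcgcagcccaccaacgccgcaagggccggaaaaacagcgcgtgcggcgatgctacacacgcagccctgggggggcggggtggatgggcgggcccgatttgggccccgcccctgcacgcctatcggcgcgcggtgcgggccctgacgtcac
Nr1d2: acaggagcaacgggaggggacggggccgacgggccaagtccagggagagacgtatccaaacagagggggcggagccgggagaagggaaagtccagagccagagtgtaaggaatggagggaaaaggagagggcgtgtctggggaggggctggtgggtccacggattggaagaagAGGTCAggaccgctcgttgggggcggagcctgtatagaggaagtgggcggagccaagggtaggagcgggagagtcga

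Both windows of Tef held a palindromic E-box, at -127 to -122 in the first and at -138 to -133 in the second, counted from the transcription start. A Ror element core stood at -12 to -7 on the minus strand of the Nfil3 window and at -77 to -72 of the Nr1d2 window, where Nr1d2 is itself one of the receptors that bind this element. The windows of Dbp, Hlf and Rora held none of the searched letters. Of the members without a sequence shown, Bhlhe41 held an E-box at -153 to -148 and Nr1d1 an E-prime box on the minus strand at -28 to -23, and Bhlhe40 had no window in the table. Among 32851 promoters of the same length, 6.02% held the E-box, 3.85% the E-prime box, 14.0% the Ror element core and 1.75% the D-box. A match is a description of letters, not a site of binding.

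Mutants were compared with controls at RT to ask how BAT differs by genotype without a cold challenge. Nfil3 was lower and Rora higher in mutant libraries, and the other 7 members did not pass the test. The 2 called members of 9 stand beside 6.24% of all tested genes called in this comparison, 3.92% higher and 2.32% lower. Among all tested genes 12.9% did not overlap between the groups with mutants higher and 11.9% with mutants lower, beside 1 and 1 of the 9 members. Called here means an adjusted p below 0.05 in edgeR's quasi-likelihood test, adjusted over 15265 genes by Benjamini-Hochberg.

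Nfil3, the D-box repressor that opposes the PAR bZIP factors, was at 12.01, 13.6 and 12.03 CPM in mutants at RT, against 22.0, 37.8 and 49.2 CPM in controls at RT. The mutant libraries lay close together, the controls spread over a wider range, and the groups did not overlap. The log2 fold change was -1.54 ± 0.30 (SE, adjusted p = 0.0116), a level 2.90-fold lower in mutants, with a 95% interval of -2.20 to -0.87. Without control RT 3, the highest library, it was -1.25 with an adjusted p of 0.0576. Rora, the activating receptor at Ror elements, was at 29.3, 42.4 and 52.3 CPM in mutants at RT, against 22.5, 17.6 and 25.6 CPM in controls at RT. Every mutant library lay above every control library. The log2 fold change was 0.91 ± 0.23 (SE, adjusted p = 0.0390), or 1.89-fold. The Rora call was lost when any 1 of 6 libraries was left out (mutant RT 2 or 3, control RT 1, 2 or 3, or control cold 3), with adjusted p of up to 0.131. Without the 4 muscle-rich libraries, which leaves 1 control library at RT, the log2 fold changes were -1.56 for Nfil3 and 1.03 for Rora, with adjusted p of 0.123 and 0.251.

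**Figure D1:**
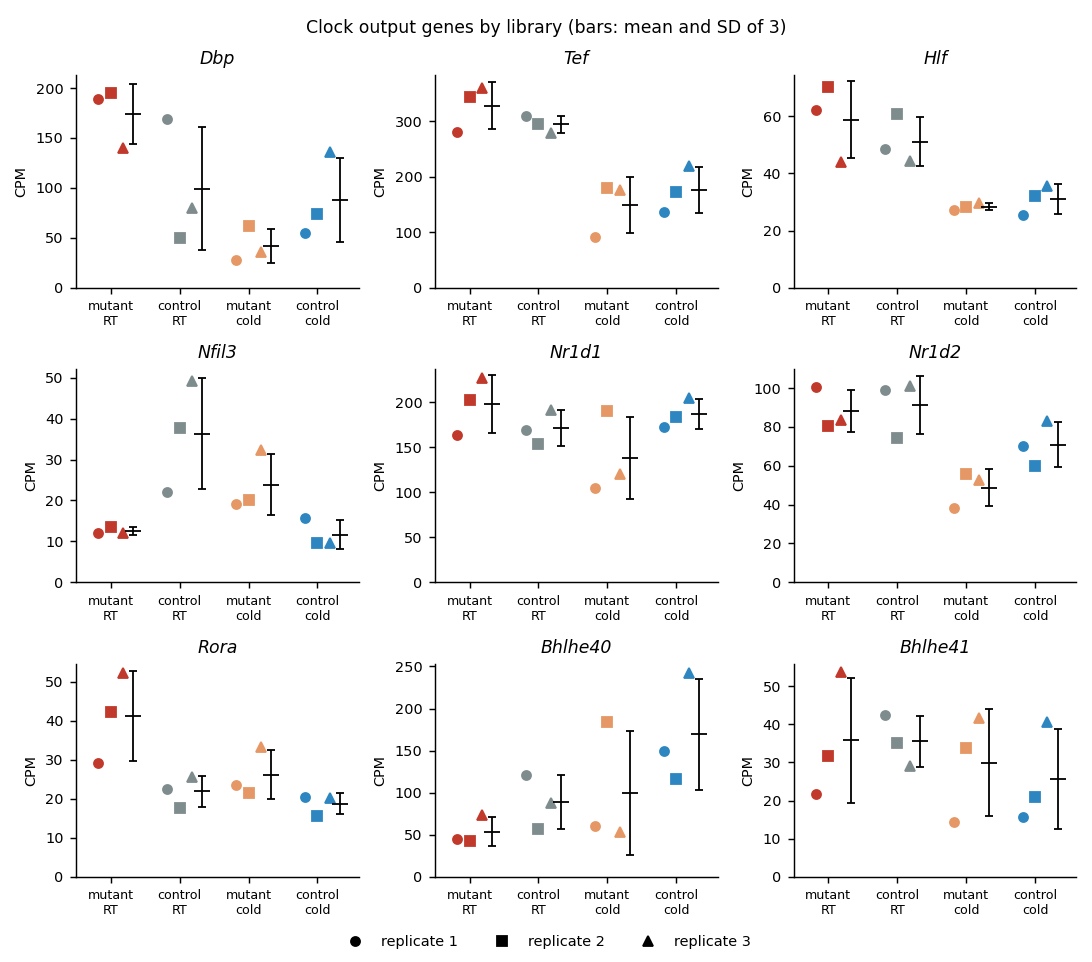
Levels of the 9 members in CPM (vertical axes, each from 0) in each library of the mutant and control groups at room temperature (RT) and in the cold, with 1 point per library and bars for the mean and SD of 3. Nfil3 was at 12.01 to 13.6 CPM in mutants at RT and at 22.0 to 49.2 CPM in controls at RT, with the opposite order in the cold, at 19.1 to 32.4 CPM in mutants and 9.55 to 15.7 CPM in controls.

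The PAR bZIP factors did not pass the test between genotypes at RT. Dbp, whose transcript is among the strongly cycling ones of many tissues, was at 189, 195 and 139.9 CPM in mutants at RT and at 169, 49.9 and 79.6 CPM in controls at RT. Only control RT 1 reached the mutant range, and the log2 fold change of 0.81 ± 0.47 had an adjusted p of 0.387. Tef averaged 328 ± 42.1 CPM in mutants and 294 ± 15.6 CPM in controls at RT (SD, n = 3 each), and Hlf 58.8 ± 13.4 CPM in mutants and 51.1 ± 8.50 CPM in controls. Both overlapped between genotypes, with log2 fold changes of 0.16 ± 0.24 for Tef and 0.20 ± 0.18 for Hlf.

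The repressing receptors were likewise not called at RT. Nr1d1, which encodes Rev-erb alpha, was at 163, 203 and 227 CPM in mutants and at 169, 153 and 192 CPM in controls. Nr1d2, which encodes Rev-erb beta, averaged 88.1 ± 10.7 CPM in mutants and 91.4 ± 14.95 CPM in controls at RT (SD, n = 3 each). Their log2 fold changes were 0.21 ± 0.21 and -0.05 ± 0.18 and their groups overlapped. Bhlhe40, a repressor of E-box genes also known as Dec1, was at 45.2, 42.6 and 73.3 CPM in mutants and at 121, 57.1 and 87.1 CPM in controls, and the log2 fold change of -0.72 ± 0.50 had an adjusted p of 0.486. Its paralog Bhlhe41 averaged 35.8 ± 16.4 CPM in mutants and 35.5 ± 6.58 CPM in controls at RT.

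In the cold no member was called between mutants and controls, beside 1.12% of all tested genes, 0.727% higher and 0.393% lower. At an unadjusted p under 0.05 edgeR held 3 of the 9 (Nfil3, Nr1d2 and Dbp). Many other genes passed this threshold, since Dbp, with an unadjusted edgeR p of 0.0464, ranked 2239 of 15265 tested genes. DESeq2 called 1 member (Nfil3, adjusted p = 0.0216) and limma-voom called 1 (Nr1d2, adjusted p = 0.0334). Over all genes DESeq2 called 717 and limma-voom 1119 in this comparison, against 171 in the main fit. Nfil3 was at 19.1, 20.02 and 32.4 CPM in mutants in the cold, against 15.7, 9.55 and 9.68 CPM in the cold controls. The groups did not overlap, and the log2 difference was 1.03 ± 0.30 (adjusted p = 0.132), opposite in sign to that at RT. Nr1d2 was at 38.2, 55.7 and 52.5 CPM in mutants and at 69.96, 59.6 and 82.9 CPM in controls, again without overlap, with a log2 difference of -0.54 ± 0.18 (adjusted p = 0.189). Rora was the remaining member without overlap, at 23.6, 21.6 and 33.4 CPM in mutants and at 20.6, 15.6 and 20.3 CPM in controls, with a log2 difference of 0.48 ± 0.23 (adjusted p = 0.358). Among all tested genes 12.9% did not overlap with mutants higher and 12% with mutants lower, beside 2 and 1 of the 9 members.

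Dbp was at 28.0, 61.3 and 36.0 CPM in mutants in the cold and at 55.0, 74.1 and 135 CPM in controls in the cold, and mutant cold 2 reached into the control range. Its log2 difference of -1.08 ± 0.48 had an adjusted p of 0.316. Nr1d1 was at 104.5, 191 and 120.0 CPM in mutants and at 173, 184 and 205 CPM in controls, with mutant cold 2 again beside the controls and a log2 difference of -0.44 ± 0.21 (adjusted p = 0.351). Bhlhe40 was at 60.4, 184 and 53.7 CPM in mutants and at 149, 116 and 242 CPM in controls. Mutant cold 2 was the high library of its group for Dbp, Nr1d1 and Bhlhe40. For Tef and Nr1d2 it lay close to mutant cold 3, at 180.0 beside 176 CPM and at 55.7 beside 52.5 CPM. Mutant cold 1 was the low library for both, at 90.9 and 38.2 CPM. Tef, Hlf and Bhlhe41 overlapped between genotypes, with log2 differences of -0.24 ± 0.24, -0.13 ± 0.19 and 0.22 ± 0.46.

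In mutant mice 1 week of cold was compared with RT to describe the cold response of BAT labelled Ebf2 mutant. Dbp, Tef, Hlf and Nr1d2 fell in the cold, so 4 of 9 members were lower and none higher, beside 17.4% of all tested genes called in either direction, 10% higher and 7.42% lower. Among all tested genes 16.7% did not overlap with cold libraries higher and 16% with cold libraries lower, beside 1 and 4 of the 9 members. The median log2 fold change of the 9 members was -0.66, beside -0.01 over all tested genes.

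Dbp was at 28.0, 61.3 and 36.0 CPM in mutants in the cold, against 189, 195 and 139.9 CPM in mutants at RT. The highest cold library was well below the lowest RT library, and the log2 fold change was -2.06 ± 0.49 (SE, adjusted p = 0.0165), a level 4.18-fold lower. The call was lost without mutant RT 2, mutant cold 1 or mutant cold 3, with an adjusted p of up to 0.0730. Tef was at 90.9, 180.0 and 176 CPM in mutants in the cold, against 280.1, 342 and 360.4 CPM at RT. It separated the temperatures fully, with a log2 fold change of -1.14 ± 0.25 (adjusted p = 0.0085), a level 2.20-fold lower. Hlf was at 27.1, 28.1 and 29.6 CPM in mutants in the cold, against 62.3, 70.2 and 44.1 CPM at RT. The cold libraries lay within a narrow band below all RT libraries, and the log2 fold change was -1.06 ± 0.19 (adjusted p = 0.0027), a level 2.08-fold lower.

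Nr1d2 was at 38.2, 55.7 and 52.5 CPM in mutants in the cold, against 100.4, 80.5 and 83.5 CPM at RT. All cold libraries were lower, with a log2 fold change of -0.85 ± 0.18 (adjusted p = 0.0077), a level 1.81-fold lower. The calls of Tef, Hlf and Nr1d2 held without any single library in turn, and those of Dbp, Hlf and Nr1d2 also without the 4 muscle-rich libraries, where the adjusted p of Tef was 0.0707. Nr1d1 was not called, at 138 ± 45.9 CPM in the cold and 198 ± 32.2 CPM at RT (SD, n = 3 each), with a log2 fold change of -0.52 ± 0.21 (adjusted p = 0.118). It was called without mutant cold 2, the high library of its group (-0.83, adjusted p = 0.0114), and in limma-voom (-0.63, adjusted p = 0.0391). Nr1d1 shares its locus with Thra, which was not called in any comparison.

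Nfil3 was at 19.1, 20.02 and 32.4 CPM in mutants in the cold and at 12.01, 13.6 and 12.03 CPM in mutants at RT. All cold libraries were above all RT libraries, and the log2 fold change of 0.93 ± 0.30 was not called (adjusted p = 0.0527). It was called in 5 of 21 alternatives, namely DESeq2 (0.0180), only the groups compared (0.0422), and without control RT 1 (0.0246), control RT 3 (0.0455) or control cold 1 (0.0440). Rora was at 26.2 ± 6.33 CPM in the cold and 41.3 ± 11.5 CPM at RT, with a log2 fold change of -0.66 ± 0.23 (adjusted p = 0.0745, or 0.0303 with a replicate block). The Bhlhe repressors were not called, with log2 fold changes of 0.89 ± 0.50 for Bhlhe40 and -0.26 ± 0.46 for Bhlhe41. Mutant cold 2, at 184 CPM, was the library that raised the cold mean of Bhlhe40, the other two being at 60.4 and 53.7 CPM.

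In control mice the same cold comparison describes the response without Adipoq-Cre. It shares its RT and cold libraries with the comparisons between genotypes, so values are set side by side and not counted as separate support. Nfil3 and Hlf fell in the cold, and these 2 of 9 members stand beside 6.62% of all tested genes called in either direction, 4.31% higher and 2.31% lower. Among all tested genes 18.9% did not overlap with cold libraries higher and 14.4% with cold libraries lower, beside 0 and 3 of the 9 members. The median log2 fold change of the 9 members was -0.37, beside -0.01 over all tested genes. Nfil3 was at 15.7, 9.55 and 9.68 CPM in controls in the cold, against 22.0, 37.8 and 49.2 CPM at RT. No cold library reached the lowest RT library, and the log2 fold change was -1.64 ± 0.30 (SE, adjusted p = 0.0103), a level 3.12-fold lower. The Nfil3 call held without any single library in turn. Hlf was at 25.3, 32.0 and 35.6 CPM in controls in the cold, against 48.5, 60.6 and 44.2 CPM at RT, again without overlap. Its log2 fold change was -0.72 ± 0.19 (adjusted p = 0.0388), a level 1.65-fold lower. The Hlf call was less firm, since it held in 3 of the 12 fits that left out 1 library, where the adjusted p ran from 0.0264 to 0.142. Without the 4 muscle-rich libraries, which leaves 1 control library at RT, the log2 fold changes were -1.58 for Nfil3 and -1.08 for Hlf, with adjusted p of 0.140 and 0.116.

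Tef was at 136, 173 and 219 CPM in controls in the cold and at 309.6, 294 and 278 CPM at RT. The groups did not overlap, but the log2 fold change of -0.74 ± 0.25 was not called (adjusted p = 0.0905). It was called with a replicate block (adjusted p = 0.0486), in DESeq2 (0.0267), with only the 2 groups compared (0.0380) and without mutant cold 1 (0.0399). Dbp did not separate the temperatures in controls, with means of 88.2 ± 42.0 CPM in the cold and 99.3 ± 61.7 CPM at RT (SD, n = 3 each) and a log2 fold change of -0.17 ± 0.47. Nr1d1 was at 187 ± 16.5 CPM in the cold and 171 ± 19.5 CPM at RT, and Nr1d2 at 70.8 ± 11.7 CPM in the cold and 91.4 ± 14.95 CPM at RT, neither called. Bhlhe40 averaged 169 ± 65.6 CPM in the cold and 88.5 ± 32.1 CPM at RT, with a log2 fold change of 0.93 ± 0.50 (adjusted p = 0.292). Rora and Bhlhe41 had log2 fold changes of -0.22 ± 0.23 and -0.47 ± 0.46, with overlapping groups.

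**Figure D2:**
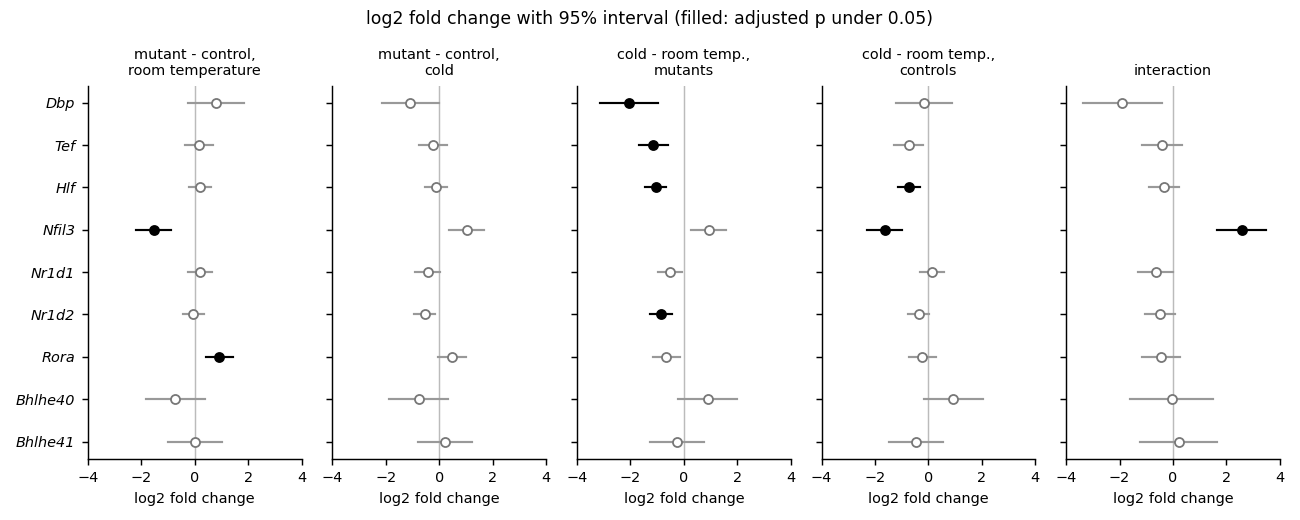
Log2 fold changes of the 9 members with 95% intervals in the mutant against control comparisons and the cold against RT comparisons, with filled points for genes with an adjusted p below 0.05. Nfil3 was at -1.54 between genotypes at RT and 1.03 in the cold, while Dbp, Tef, Hlf and Nr1d2 were filled below 0 for cold against RT in mutants. In the interaction panel Nfil3 stood at 2.57, to the right of 0 with its whole interval.

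The test of the interaction asked whether the cold response differed between genotypes. Nfil3 was the 1 member of 9 called, beside 0.478% of all tested genes, 0.295% higher and 0.183% lower. Its log2 change in the cold was 0.93 in mutants and -1.64 in controls, a difference of 2.57 ± 0.43 (SE, edgeR, unadjusted p = 6.4e-05, adjusted p = 0.0272, 95% interval 1.64 to 3.50). The adjusted p was 0.0554 with a replicate block and 0.173 without the muscle-rich libraries, where the difference was 2.47, and the call held in 4 of the 12 fits that left out 1 library (adjusted p 0.0064 to 0.0977). The sign was the same in all alternatives. Of the 7 lens markers 5 were called in the interaction with the same sign, and their part in the Nfil3 result was not tested. For Dbp the log2 change in the cold was -2.06 in mutants and -0.17 in controls, and the difference of -1.89 ± 0.67 was not called by edgeR (adjusted p = 0.289) but was called by DESeq2 (0.0486) and limma-voom (0.0345). The remaining 7 members had adjusted p of 0.411 or more, so a call in mutants and none in controls does not show that Tef or Nr1d2 responded differently.

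The balance of D-box activators to their repressor was summarised within each library as the sum of Dbp, Tef and Hlf counts over Nfil3 counts, a ratio that does not depend on library scaling. It was 44.2, 44.7 and 45.2 in mutants at RT, against 23.9, 10.7 and 8.17 in controls at RT. In the cold it was 7.64, 13.5 and 7.47 in mutants, against 13.8, 29.2 and 40.2 in controls. The ratio did not overlap between genotypes at either temperature, with mutants higher at RT and lower in the cold. The ratio was chosen after the member values were known, so it carries no test. Counts were not divided by exon length, which is 7.87 kilobases for Tef, 6.68 for Hlf, 2.99 for Dbp and 2.03 for Nfil3. Tef therefore weighs more in the sum, and Dbp less in the shares that follow, than they would per kilobase. Dbp made up 35.5%, 32.1% and 25.7% of the PAR bZIP counts in mutants at RT, 32%, 12.3% and 19.8% in controls at RT, 19.2%, 22.8% and 14.9% in mutants in the cold, and 25.4%, 26.6% and 34.8% in controls in the cold. Its share was therefore lower in all mutant cold libraries than in all mutant RT libraries, whereas the shares in controls overlapped.

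**Figure D3:**
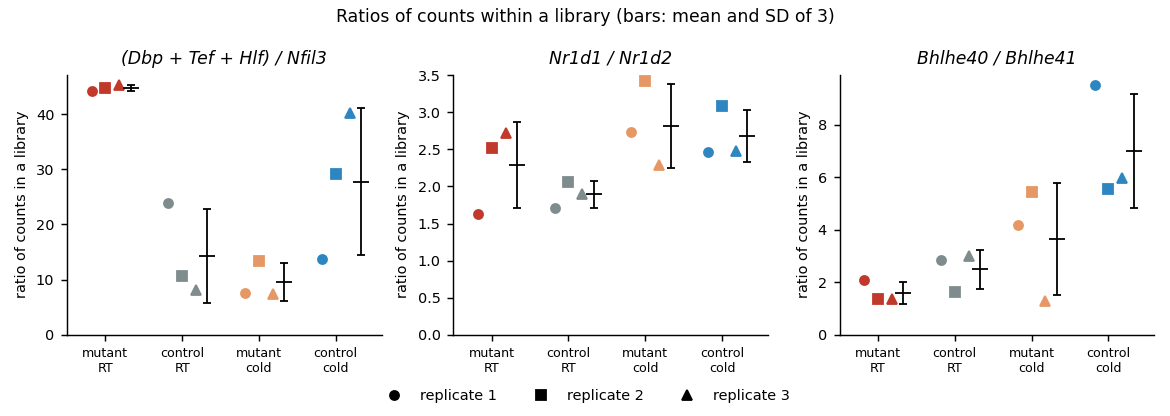
Ratios of counts within each library, with 1 point per library and bars for the mean and SD of 3, for the PAR bZIP factors over Nfil3, Nr1d1 over Nr1d2 and Bhlhe40 over Bhlhe41. The first ratio was 44.2 to 45.2 in mutants at RT and 8.17 to 23.9 in controls at RT, against 7.47 to 13.5 in mutants and 13.8 to 40.2 in controls in the cold.

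The Rev-erb receptors and the Bhlhe repressors were also set against each other within libraries. The ratio of Nr1d1 to Nr1d2 counts was 2.74, 3.42 and 2.29 in mutants in the cold and 1.63, 2.52 and 2.72 in mutants at RT, with overlap. In controls it was 2.47, 3.08 and 2.48 in the cold and 1.71, 2.07 and 1.90 at RT, without overlap. Bhlhe40 over Bhlhe41 was 4.20, 5.45 and 1.29 in mutants in the cold and 2.07, 1.35 and 1.36 in mutants at RT, with overlap. In controls it was 9.50, 5.56 and 5.97 in the cold and 2.86, 1.63 and 2.99 at RT, where all cold libraries were above all RT libraries.

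Per kilobase of exon, which allows levels to be set beside each other across genes, Nr1d1 had the highest mean of the members and Rora the lowest in each of the 4 groups. Nr1d1 averaged 64.3 CPM per kb in mutants at RT, 55.7 in controls at RT, 45.0 in mutants in the cold and 60.9 in controls in the cold. Rora averaged 3.16 CPM per kb in mutants at RT, 1.68 in controls at RT, 2.004 in mutants in the cold and 1.44 in controls in the cold. The ranks between them moved. Dbp was second in mutants at RT at 58.3 CPM per kb, the third in controls at RT at 33.2 and lower in the order in mutants in the cold at 14.0, while Bhlhe40 took the second place in both cold groups. Neighbours in the order did not overlap in 2 of 8 pairs in each mutant group and in 4 of 8 pairs in each control group. The overlaps reached both ends of the order. Nr1d1 overlapped the next member in both mutant groups (Dbp at RT and Bhlhe40 in the cold), and Rora overlapped Bhlhe41 in mutants at RT. Exon lengths came from GENCODE M21, an annotation of a later build than the one the counts were made on.

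The members also differed in how far libraries of a group lay apart. The SD of log2 CPM within groups was 0.66 for Bhlhe40, 0.64 for Bhlhe41 and 0.64 for Dbp, and between 0.24 and 0.42 for the other 6, beside a median of 0.29 over all tested genes. Between 16.6% and 17.5% of tested genes had a larger spread than these 3 members. Arntl, the core activator that the Rev-erb receptors repress, had a spread of 0.82.

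Dbp and Arntl ran opposite to each other across the libraries. Arntl was at 1.53, 0.901 and 2.29 CPM in mutants at RT, 1.56, 6.39 and 5.09 CPM in controls at RT, 18.01, 6.34 and 9.89 CPM in mutants in the cold, and 8.95, 5.73 and 3.35 CPM in controls in the cold. The libraries with the least Arntl were those with the most Dbp, also inside a group, where control RT 1 had 1.56 CPM of Arntl beside 169 CPM of Dbp and control RT 2 had 6.39 CPM of Arntl beside 49.9 CPM of Dbp. The ratio of Dbp to Arntl counts ran from 1.56 in mutant cold 1 to 216 in mutant RT 2. Over the 12 libraries Pearson's r of log2 CPM was -0.97 and Spearman's rho -0.99, each with a two-sided permutation p of 1e-05, the smallest that 100000 resamples can give, and 9e-05 after Benjamini-Hochberg adjustment over the 9 members tried. Without the 2 libraries farthest from the median of Arntl r was -0.97, and on deviations from the group means it was -0.94. The relation was examined after its values were seen. Libraries of a group share their genotype and temperature, so they are not fully independent in the pooled permutation.

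Nr1d2 and the other PAR bZIP factors showed the same sign with more scatter. Pearson's r with Arntl was -0.83 for Tef, -0.79 for Hlf, -0.77 for Nr1d2 and -0.63 for Nr1d1, with permutation p adjusted over the 9 relations of 0.0033, 0.0071, 0.0071 and 0.0469. Spearman's rho for these was -0.78, -0.79, -0.77 and -0.58, with adjusted p of 0.0114 for the first 3 and 0.096 for Nr1d1. Without the 2 farthest libraries r was -0.84 for Tef, -0.61 for Hlf, -0.82 for Nr1d2 and -0.72 for Nr1d1. On deviations from the group means these were -0.60, -0.39, -0.55 and -0.41, so the within-group part was smaller than for Dbp. The deviations carry no test, and the pooled permutation p also takes in the differences between group means. Nfil3, Rora, Bhlhe40 and Bhlhe41 had r of 0.36, -0.46, 0.18 and -0.45, with adjusted p of 0.187 or more, and rho with adjusted p of 0.341 or more. Without the 2 farthest libraries these r were 0.22, -0.23, -0.34 and -0.72, and on deviations 0.50, 0.01, -0.51 and -0.47, so Bhlhe40 changed sign and Bhlhe41 had values like those of Tef, Hlf and the Rev-erb receptors.

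**Figure D4:**
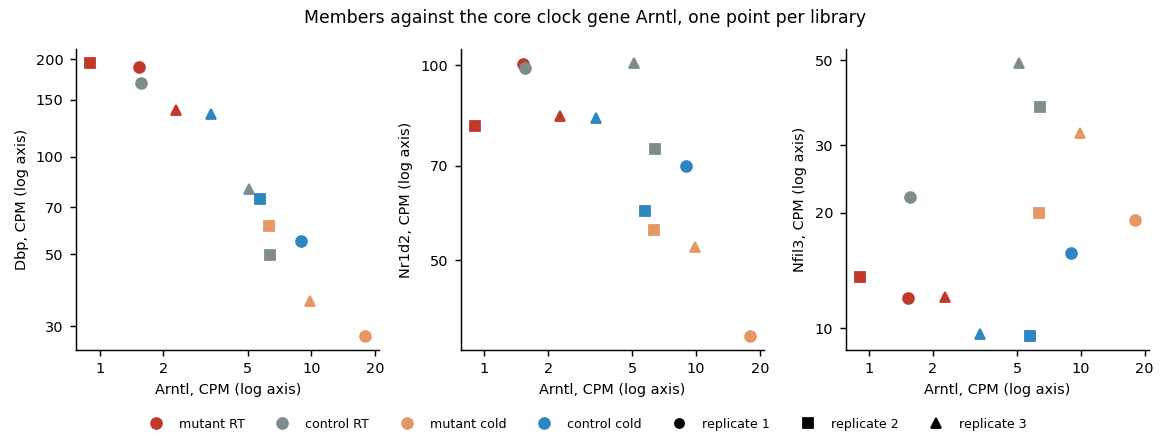
Levels of Dbp, Nr1d2 and Nfil3 against that of Arntl, in CPM on log axes, with 1 point per library coloured by group. Dbp lay on a falling line with r of -0.97 over the 12 libraries, Nr1d2 fell with more scatter (r of -0.77), and Nfil3 had r of 0.36.

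The gene most like Dbp over the libraries, among 12418 searched, was Sphk2, a sphingosine kinase gene (r of log2 CPM 0.95 over 12 libraries), followed by the core clock gene Per3 (0.93) and Hdgfrp2 (0.92). Sphk2 is the neighbour of Dbp on the opposite strand, and 539 bases of its exons overlap those of Dbp, or 18% of the exon bases of Dbp in GENCODE M21. The strand setting of the counts is not given, so reads in the overlap cannot be assigned. Sphk2 was at 55.0, 69.0 and 55.4 CPM in mutants in the cold, against 124, 116 and 82.0 CPM in mutants at RT. It fell with a log2 fold change of -0.85 ± 0.23 (adjusted p = 0.0266) and was not called in the other comparisons of 2 groups. Nr1d1 overlaps Thra, the gene of thyroid hormone receptor alpha, by 263 opposite-strand bases (8.55% of its exon bases).

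For the other members the closest patterns belonged to Usp42 for Tef (0.94), Zfp449 for Hlf (0.94), Sash1 for Nfil3 (0.94), Tap1 for Nr1d1 (0.84), Ssbp2 for Nr1d2 (0.94), Etf1 for Rora (0.93), Setmar for Bhlhe40 (0.91) and Capn1 for Bhlhe41 (0.85). Setmar lies near Bhlhe40, with 2 coding genes between them. On deviations from the group means the closest gene to Tef was a fellow member, Bhlhe41 (r of 0.92). These are descriptions over libraries that share groups and depth. Over the 36 pairs of members r of deviations ran from -0.57 for Dbp and Nfil3 to 0.92 for Tef and Bhlhe41.

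The core loop, which drives several of the members through E-boxes, was set beside them in brief. Of its 9 genes, 1 was higher in mutants at RT (Cry2, log2 fold change 0.66 ± 0.17, adjusted p = 0.0362), none was called between genotypes in the cold, 4 fell and 2 rose in the cold in mutants, led by Cry2 (-0.90, adjusted p = 0.0035), Arntl (2.85 ± 0.60, adjusted p = 0.0077) and Per2 (-1.65, adjusted p = 0.0195), and 1 fell in controls (Per2, -1.56 ± 0.41, adjusted p = 0.0479). Over all tested genes the called shares were 6.24% at RT between genotypes, 17.4% between temperatures in mutants and 6.62% in controls.

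The corepressor complex of the Rev-erb receptors was not called in any comparison in any of its 6 genes, among them Ncor1, the most abundant, with adjusted p of 0.0743 or more. Of 12 clock kinases and ubiquitin ligases only Btrc, an F-box protein that marks PER proteins for decay, was called, and only in the cold comparison of mutants (log2 fold change -0.53 ± 0.14, adjusted p = 0.0258). Genes known as PAR bZIP targets from mouse liver and kidney numbered 11, of which 6 were tested. In mutants at RT 1 of the 6 was higher, Por, the electron donor of cytochrome P450 enzymes, at 616, 699 and 585 CPM against 415, 371 and 335 CPM in controls (log2 fold change 0.76 ± 0.15, adjusted p = 0.0098). In the cold 1 was higher in mutants, Alas1, the first enzyme of heme synthesis, at 432, 490.5 and 317 CPM against 213, 194 and 215 CPM in controls (1.00 ± 0.16, adjusted p = 0.0141). In mutants Alas1 (0.86, adjusted p = 0.0039) and Cyp2b10 (5.06 ± 1.09, adjusted p = 0.0141) were among the 3 that rose in the cold, while Por fell (-0.74, adjusted p = 0.0052). None was called between temperatures in controls. Over all tested genes 3.92% were higher in mutants at RT and 0.727% in the cold. Between temperatures 10% rose and 7.42% fell in mutants, and 6.62% were called in controls.

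Genes known as Rev-erb targets in mouse numbered 17, of which 16 were tested, Nfil3 among them. In mutants at RT 3 were higher and 2 lower, among them Elovl3, a fatty acid elongase (log2 fold change 1.61 ± 0.27, adjusted p = 0.0045), Srebf1 (1.01 ± 0.19, adjusted p = 0.0090) and Nfil3. Ucp1, the uncoupling protein, was the other lower gene (-1.77 ± 0.39, adjusted p = 0.0199). In the cold 1 was higher in mutants, Lpl, the lipoprotein lipase (1.51 ± 0.31, adjusted p = 0.0438). In mutants 6 rose and none fell in the cold, led by Elovl3 (4.09 ± 0.29, adjusted p = 2.0e-05), Ucp1 (2.86 ± 0.41, adjusted p = 0.00079) and the lipid droplet gene Plin2 (1.03 ± 0.20, adjusted p = 0.0050). In controls 4 rose and 1 fell, led by Elovl3 (4.80 ± 0.30, adjusted p = 3.3e-05), Plin2 (1.47 ± 0.20, adjusted p = 0.0024) and the fall of Nfil3. Over all tested genes 10% rose and 7.42% fell in mutants, and 4.31% rose and 2.31% fell in controls. Between genotypes 3.92% were higher and 2.32% lower in mutants at RT, and 0.727% were higher in the cold. The median log2 fold change of the 16 was 0.70 in mutants and 0.32 in controls, beside -0.01 over all tested genes. Nr1d1 itself was not called in either cold comparison in the main fit. Nr1d2 was lower in the cold in mutants (-0.85, adjusted p = 0.0077) and not called in controls.

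Among 6 genes of bHLH repressors and inhibitors that share partners or targets with Bhlhe40 and Bhlhe41, Id2 was lower in mutants at RT, at 5.65, 3.35 and 3.196 CPM against 10.7, 15.003 and 18.2 CPM in controls (log2 fold change -1.84 ± 0.36, adjusted p = 0.0116). None was called between genotypes in the cold. Hey1 rose in the cold in mutants (1.17, adjusted p = 0.0083) and in controls (1.21, adjusted p = 0.0175), and Id2 rose in mutants (2.23, adjusted p = 0.0018). Over all tested genes 2.32% were lower in mutants at RT, and 10% rose in the cold in mutants and 4.31% in controls. In the interaction Nfil3 was the 1 gene called among these lists and the members, beside 0.478% of all tested genes.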

How the data were processed

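The deposited table holds raw read counts per gene, with a column for each library. The submitters' processing notes name STAR, featureCounts and the build mm9. Neither versions nor an annotation or strand setting are stated in those sources, so overlapping genes on opposite strands cannot be separated. From these counts edgeR 4.0.16 (R 4.3.3) was run on all 12 libraries with 1 coefficient per group, after filterByExpr (minimum count 10, minimum total 15), which left 15265 of 24197 genes. TMM factors and the robust quasi-likelihood F-test were used, with two-sided p-values adjusted by Benjamini-Hochberg. Errors of fold changes are the SE implied by the F statistic, and CPM values use TMM-scaled library sizes. In these libraries 3 counts correspond to 0.0791 to 0.116 CPM, and such floors cover counting error only. Counts of replicates differed by more than sampling noise (chi-square over its degrees of freedom 40.7 to 249). Scripts were tested on simulated counts.

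Alternatives were RLE and upper-quartile factors, DESeq2 1.42.0, limma-voom (limma 3.58.1), other filters, fits to the compared groups alone, a block for the replicate number, each library left out in turn and, chosen after seeing the data, the 4 muscle-rich libraries left out. Replicate numbers are shared between groups. The correlations of same-numbered deviations passed 0.1 throughout at RT (0.165, 0.719 and 0.488) and in controls across temperature (0.142, 0.647 and 0.456), but not in the cold (-0.03, 0.206 and 0.491) or in mutants (0.0272, 0.151 and 0.577). Muscle markers summed to between 5305 and 18712 CPM in the libraries numbered 3 and between 19.1 and 372 CPM in those numbered 2. In those numbered 1 the sums ran from 187 to 24421 CPM. The part of muscle RNA in these correlations was not tested. No label says what a shared number stands for, so pairing is unsettled and blocked values are given where they change a call.

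The members, the context lists and the rule for naming genes were chosen with earlier results of these data known. The rule names the 9 members, Ebf2 and Ucp1, up to 3 called genes of each context list per comparison by smallest p, or the 2 most abundant where a list had none, and the genes most like each member. Some results under this rule are not reported here. The ratios, the relation to Arntl and the values of Sphk2 and Thra were added after values were seen. Promoter sequences come from RefSeq (GRCm38.p6), in which 8 of 9 members matched.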

Additional observations from a re-analysis of the deposited data

Results flagged for a closer look

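The cold response of Nfil3 differed between genotypes by a direct test in the main fit, a call that did not hold in all alternatives. Its log2 change in the cold was 0.93 in mutants and -1.64 in controls, an interaction of 2.57 ± 0.43 (SE, adjusted p = 0.0272). In mutants every cold library (19.1 to 32.4 CPM) lay above every RT library (12.01 to 13.6 CPM), and in controls every cold library (9.55 to 15.7 CPM) lay below every RT library (22.0 to 49.2 CPM). The adjusted p in edgeR was 0.0554 with a replicate block and ran from 0.00635 to 0.0977 in the fits that left out 1 library. The call held in 10 of 20 alternatives, among them 4 of the 12 fits that left out 1 library. The hour of collection is not given, and 5 of 7 lens markers were called in the interaction with the same sign. The part of either in this result was not tested.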

How the results depend on the processing

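Of 936 recomputed member values, 849 kept their direction and side of the threshold, and none of the 9 calls reversed. Of these values 748 belonged to results not called in the main fit. Of the 188 values for the 9 calls, 153 kept the call and 35 lost it. The counts of members called were 2, 0, 4, 2 and 1 for mutants against controls at RT and in the cold, cold against RT in mutants and in controls, and the interaction. Leaving out each replicate in turn gave 0 to 2, 0 to 0, 3 to 5, 1 to 2 and 0 to 1. A replicate block left 0 for the interaction (Nfil3 at 2.48) and changed no other member call except Tef in controls and Rora in mutants, given above. With only the groups compared the RT count was 1. DESeq2 and limma-voom each gave 1 in the cold and 2 for the interaction. Without the muscle-rich libraries the RT, control cold and interaction counts were each 0. The cause was not tested.

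Over all genes, 952, 171, 2663, 1010 and 73 were called in the same order. DESeq2 gave 1651 at RT, 717 in the cold, 1949 in controls and 428 for the interaction, and limma-voom 2844, 1119, 5075, 3402 and 1121. Only the groups compared gave 552 at RT, 102 in the cold and 1633 in mutants, the block 34 for the interaction, leaving out the muscle-rich libraries 129, 18, 1218, 13 and 26, and leaving out 1 library 395 to 1512, 28 to 203, 1466 to 3630, 313 to 1795 and 13 to 204.

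Signs reversed for uncalled values alone, each with an adjusted p of 0.565 or more. The ranges without 1 replicate cover all such fits. Bhlhe41 between genotypes at RT was -0.002 with upper-quartile factors, -0.0003 with a CPM filter, -0.18 with the block, -0.39 without the muscle-rich libraries and -0.41 to 0.27 without 1 replicate. In the cold it was -0.31 in limma-voom and -0.094 to 0.71 without 1 replicate. Its cold change in mutants was 0.16 without the muscle-rich libraries and -0.57 to 0.15 without 1 replicate, and its interaction -0.38 in limma-voom and -0.11 to 0.70 without 1 replicate. The interaction of Bhlhe40 was 0.013 with the block and -0.85 to 0.32 without 1 replicate. The cold change of Dbp in controls was 0.034 in limma-voom, 0.37 without the muscle-rich libraries and -0.63 to 0.45 without 1 replicate. Nr1d2 between genotypes at RT was 0.29 without the muscle-rich libraries and -0.18 to 0.025 without 1 replicate, Rora in controls 0.039 without the muscle-rich libraries, and Tef between genotypes in the cold -0.40 to 0.022 without 1 replicate (0.022 without mutant cold 1).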
